A study of Mus musculus with 4 samples.

Results

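The clustered protocadherin genes are 3 neighbouring gene arrays, alpha, beta and gamma, on mouse chromosome 18. Members were taken as protein-coding genes of the mm9 GENCODE annotation on that chromosome whose symbol begins with Pcdha, Pcdhb or Pcdhg followed by a number, or by a letter and a number. This gave 24 of 22359 protein-coding genes, with 2 in the alpha, 21 in the beta and 1 in the gamma cluster. The counts are uneven because the annotation holds most alpha isoforms under the single symbol Pcdha11 and all gamma isoforms under Pcdhgc5. The transcripts of the 24 genes start at 40 distinct variable exons, 10 alpha, 21 beta and 9 gamma, once starts of a gene less than 1 kb apart are counted once.

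Clustered protocadherins are cadherin-like cell surface proteins best known from neurons, where different combinations in single cells help a cell tell its own processes from those of its neighbours. Each large variable exon encodes the extracellular part, the membrane-spanning part and a short stretch of the cytoplasmic part of 1 protein, and has a promoter of its own just upstream. Alpha and gamma variable exons are spliced to constant exons shared by the whole cluster, while each beta gene is a single exon. The alpha and gamma variable exons that lie nearest the constant exons encode the so-called C-type proteins, whose expression is regulated differently from that of the others. Choice among the promoters is known to involve DNA methylation, CTCF and cohesin.

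RYBP, also known as DEDAF, is a subunit of non-canonical forms of Polycomb repressive complex 1, which place a ubiquitin on histone H2A and are often found at CpG-rich promoters. Its occupancy was measured by chromatin immunoprecipitation and sequencing with an anti-DEDAF antibody in 2 replicates, each from its own differentiation of wild-type embryonic stem cells (C57Bl/6 X Sv129) into embryoid bodies. The labels give day 3.75 and FLK1+ mesoderm, and the design text adds that cells carrying PDGFRa were left out. The study's methods differ on both points, since they name a somewhat later day for RYBP and a magnetic isolation by FLK1 alone. The design text names SCL as the precipitated protein, whereas the series title, the antibody and the study's methods name RYBP. No treatment or genotype was compared, and 2 input samples without antibody have no peak list, so their levels at the protocadherins were not analysed here. A peak list cannot test the cell type by expression.

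The files held 14794 peaks in replicate 1, 18154 in replicate 2 and 22409 merged regions, each merged region being the joined stretch of the peaks of either replicate. Of all peaks, 69.0% in replicate 1 and 56.4% in replicate 2 overlapped a peak of the other replicate. The peak lists hold no read counts. The study's reporting summary gives more mapped reads for replicate 1 than for replicate 2, although replicate 1 has fewer peaks. The lack of a peak says that none was listed at the authors' cutoff, and no test between groups is possible in this design. Values below are descriptions, with both replicates given.

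When each gene was represented by 1 start, 2 of the 24 protocadherin genes (8.33%) had a merged region within 1 kb, against 49.5% of all protein-coding genes. They were Pcdha11, with a peak in both replicates, and Pcdhb22, with a peak in replicate 2. A peak in both replicates was found at 1 of 24 gene starts (4.17%), against 34.1% of all genes. Since 1 start per gene leaves out most alpha and gamma promoters, the variable exons were counted next, a choice made after the annotation was seen. Of the 40 exon starts, 9 (22.5%) had a merged region within 1 kb, 7 (17.5%) a replicate 1 peak, 6 (15.0%) a replicate 2 peak and 4 (10%) a peak in both. Over all 30317 annotated protein-coding starts counted the same way, the shares were 42.3%, 31.6%, 39.7% and 29.0%. Each protocadherin share was below the share of starts at large, a difference that was not tested. At starts with fewer than 3 CpG per 100 bp around them, 2 of 23 protocadherin starts (8.70%) had a merged region, against 8.86% of all such starts. At starts with 3 or more, it was 7 of 17 (41.2%), against 80.5%.

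The shares were unlike among the 3 clusters, which were not tested against each other. A merged region lay within 1 kb of 6 of 9 gamma exon starts (66.7%), 2 of 10 alpha starts (20%) and 1 of 21 beta starts (4.76%). Peaks in both replicates were found at 3 gamma starts, 1 alpha start and 0 beta starts. An annotated transcript start coincided with the annotated coding start at 10 of 10 alpha, 3 of 21 beta and 0 of 9 gamma exons. The window was therefore not placed alike relative to the start codon in the 3 clusters. When the window ran from the start to 2.4 kb downstream, about the length of a variable exon, the counts with a merged region became 9 of 9 gamma, 4 of 10 alpha and 4 of 21 beta exons. In that window a merged region was found at 17 of 40 protocadherin exons (42.5%), against 41.1% of all annotated starts, and peaks in both replicates at 6 (15.0%), against 27.5%. Moving the window into the exon therefore brought the merged count close to the background, while the count in both replicates stayed below it.

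The annotation leaves several variable exons out, so open reading frames of at least 1800 bp were also searched for in the mm9 sequence of the locus. Of 65 such frames, 58 encoded a protein that aligned to an annotated clustered protocadherin over at least 80% of its length, with 14 in the alpha, 22 in the beta and 22 in the gamma cluster. All 40 annotated exons were among them, and the other 18 comprised 4 alpha, 1 beta and 13 gamma frames. They are numbered here along the chromosome, from the most upstream frame of each cluster, and the numbers are not isoform names. Over whole frames, 24 of 58 held a merged region (41.4%), namely 16 gamma (72.7%), 4 alpha (28.6%) and 4 beta (18.2%). Frames with a peak in both replicates numbered 10 gamma, 1 alpha and 0 beta. No background was counted over whole frames. The nearest equivalent is the window from the start to 2.4 kb downstream, with 41.1% merged and 27.5% in both over all annotated starts. Beside these, the merged share of the 58 frames was close to the background, and their share in both replicates lay below it. By cluster, the merged share was above 41.1% in gamma and below it in alpha and beta. These differences were not tested.

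**Figure D1:**
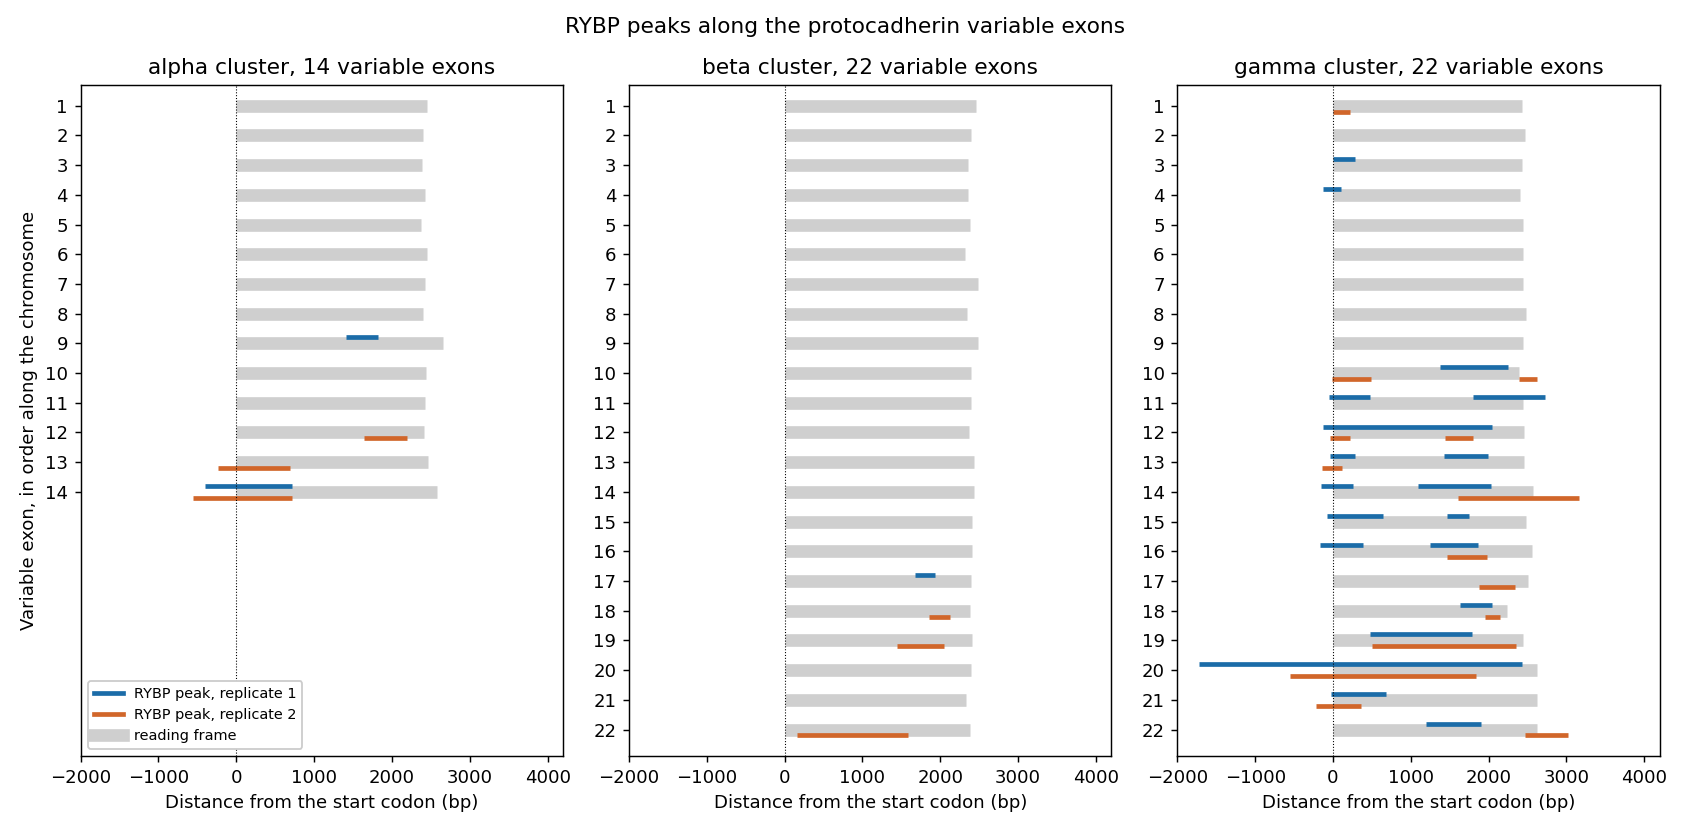
RYBP peaks of replicate 1 (blue) and replicate 2 (orange) along the 14 alpha, 22 beta and 22 gamma variable exons, drawn as grey bars to scale; the x axis gives distance from the start codon in bp and the y axis the order along the chromosome. Gamma 10 to gamma 22 all carry a peak, whereas 18 of 22 beta and 10 of 14 alpha frames carry none.

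The alpha cluster ran from an exon starting at chr18:37089939 to the end of its last constant exon at 37347311 (mm9, plus strand), and peaks were found mainly at its downstream end. Alpha 14, the first exon of transcript Pcdha11-202, had a peak over its start codon in both replicates. The replicate 1 peak covered chr18:37303227-37304339, from -396 to 716 bp of the start codon, with a 3.55-fold enrichment and a −log10 q of 3.56. The replicate 2 peak covered chr18:37303063-37304335, with a 3.93-fold enrichment and a −log10 q of 3.68. Among the 10 annotated alpha exons, this start alone had peaks in both replicates.

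Alpha 13, the first exon of Pcdha11-201, had a replicate 2 peak over its start codon at chr18:37249549-37250479, with a 3.52-fold enrichment and a −log10 q of 2.06, and no replicate 1 peak. These 2 frames are the alpha variable exons nearest the constant exons. Of alpha 1 to alpha 12, 10 had no peak in either replicate, including alpha 1 (Pcdha11-204), alpha 3, which is the separately named gene Pcdha3, and the 4 frames without an annotated exon. Alpha 9 (Pcdha11-207) had a replicate 1 peak and alpha 12 (Pcdha11-203) a replicate 2 peak, both inside the exon, with midpoints 1618 and 1919 bp from the start codon and enrichments of 2.94-fold and 3.75-fold. In each of these exons the other replicate had no peak.

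The beta genes were nearly free of peaks. A merged region lay at 4.76% of the 21 starts, against 42.3% of all annotated starts. Of the 21 beta starts, 1 had 3 or more CpG per 100 bp around it. Among all annotated starts with fewer, 8.86% had a merged region. None of the 21 annotated starts had a replicate 1 peak within 1 kb, and Pcdhb22, the most downstream gene, was the only one with a replicate 2 peak there. That peak covered chr18:37678299-37679722, from 164 to 1587 bp of the start codon, with a 3.13-fold enrichment and a −log10 q of 1.27. The other 3 beta peaks lay far inside exons of the downstream part of the cluster. Pcdhb17 had a replicate 1 peak of 248 bp (4.22-fold, −log10 q 3.95) centred 1802 bp from its start codon. Pcdhb18 and Pcdhb19 each had a replicate 2 peak, 3.27-fold and 3.40-fold enriched and centred 1988 and 1750 bp from the start codon. No beta peak was shared by the replicates, and the first gene of the cluster, Pcdhb1, had none.

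The gamma cluster carried most of the peaks of the 3 clusters, 20 of 23 in replicate 1 and 14 of 20 in replicate 2. Peaks were counted to 1 kb beyond each cluster, which leaves out the stretches between them. Gamma 20, the first exon of Pcdhgc5-208, held the widest region of the 3 clusters. In replicate 1 a peak of 4149 bp at chr18:37964477-37968625 reached from -1725 to 2423 bp of the start codon, with a 4.33-fold enrichment and a −log10 q of 4.90. The replicate 2 peak, of 2386 bp, was 3.69-fold enriched with a −log10 q of 3.25. Peaks covered 92.7% of this reading frame in replicate 1 and 70.1% in replicate 2.

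Gamma 21, the first exon of Pcdhgc5-205, had peaks over the start codon in both replicates, 3.28-fold enriched in replicate 1 (−log10 q 2.36) and 3.81-fold in replicate 2 (−log10 q 2.79). Gamma 13 (Pcdhgc5-210) had a narrow peak over the start codon in both, 4.35-fold in replicate 1 (−log10 q 3.95) and 3.11-fold in replicate 2 (−log10 q 1.28). Here the replicates differed more, and the replicate 2 peak was near the cutoff. Gamma 19 (Pcdhgc5-202) had its peaks inside the exon, from 470 to 1788 bp of the start codon in replicate 1 (3.44-fold, −log10 q 2.26) and from 498 to 2355 bp in replicate 2 (3.98-fold, −log10 q 2.85). Neither of its peaks reached the start codon, although both fell partly within 1 kb of it. Neither fell within 1 kb of its annotated start, which lies upstream of the start codon.

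Gamma 22 (Pcdhgc5-203), the last variable exon before the constant exons, differed from gamma 20 and gamma 21. It had a replicate 1 peak from 1197 to 1898 bp of the start codon (2.89-fold, −log10 q 1.16) and a replicate 2 peak from 2462 to 3026 bp (2.99-fold, −log10 q 1.85), so the peaks did not overlap and none lay within 1 kb of the start codon. Considering the 5 variable exons nearest the constant exons together, alpha 13, alpha 14 and gamma 20 to gamma 22, 4 had a merged region within 1 kb of the start codon and 3 a peak in both replicates. Among the other 53 frames, the counts were 12 (22.6%) and 3 (5.66%). Over all annotated starts the shares were 42.3% and 29.0%. At annotated starts with 3 or more CpG per 100 bp around them, the shares were 80.5% and 57.8%. Around their start codons the 5 exons had 5.0, 8.89, 7.49, 5.19 and 1.90 CpG per 100 bp, in the order named. The annotation does not name the C-type exons, so these 5 were grouped by position only.

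Other annotated gamma starts had a peak in replicate 1 alone. Gamma 3 (Pcdhgc5-207), the most upstream annotated gamma exon, had one of 3.09-fold enrichment and gamma 11 (Pcdhgc5-206) one of 3.68-fold. Gamma 14 (Pcdhgc5-201) had a start peak of 3.19-fold in replicate 1, and a second, 3.88-fold peak inside the exon that overlapped a 3.89-fold replicate 2 peak. Gamma 17 (Pcdhgc5-204) had a 3.28-fold peak in replicate 2, centred 2106 bp from the start codon.

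Of the 13 gamma frames without an annotated exon, 7 had a peak in the frame and 4 of these in both replicates. Gamma 12 was covered along 83.7% of its frame by a replicate 1 peak (3.59-fold). In replicate 2 it had separate peaks at the start codon (3.75-fold) and further inside (4.52-fold). The latter was the highest of the 3 clusters in that replicate. Gamma 16 had a replicate 1 peak at the start codon (3.91-fold) and overlapping peaks of both replicates inside the exon (3.18-fold and 3.71-fold). Gamma 18 had overlapping peaks inside the exon (3.03-fold and 3.13-fold). Gamma 10 had peaks in both replicates that did not overlap. These exons are absent from the annotated start counts above, so a count on annotated starts alone misses occupied gamma exons.

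Along the gamma cluster, peaks were concentrated downstream. Of gamma 1 to gamma 9, 3 frames had a peak, each in 1 replicate only, at the start codons of gamma 1 (4.34-fold, replicate 2), gamma 3 and gamma 4 (3.16-fold, replicate 1). Of gamma 10 to gamma 22, all 13 had a peak and 10 had peaks in both replicates. Peaks covered 1.76% (replicate 1) and 0.973% (replicate 2) of the frames of the first group on average, against 41.7% and 23.1% of the second. The groups also differed in CpG per 100 bp of the frame, with medians of 3.09 (2.30 to 4.54) and 4.44 (2.87 to 5.90). The boundary between the groups was drawn after the peaks were seen, so the contrast is a description of it and was not tested.

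Gamma peaks were not confined to the start codon. At the start codon itself, 10 of 22 gamma frames were covered in replicate 1 and 5 in replicate 2. At 1000 bp downstream of it the counts were 3 and 2, and at 1700 bp they were 10 and 5. Each reading frame was also cut into 3 equal stretches. Mean cover in gamma was 20.9% ± 9.78 (SD, n = 2 replicates) in the upstream stretch. It was 18.8% ± 9.63 in the middle and 19.3% ± 4.65 in the downstream stretch. The same 2 replicates gave all 3 means, so the SD does not measure the spread of a difference between stretches. Cover was highest upstream in replicate 1 and downstream in replicate 2, and the stretches were not tested against each other. Peaks of both replicates touched the upstream stretch of 5 gamma frames and the downstream stretch of 8. The downstream stretch lies nearest the splice donor of the variable exon, away from the promoter.

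The shared constant exons had almost no peaks. Neither replicate had one at the 3 alpha constant exons. Among the 3 gamma constant exons, a single replicate 1 peak at chr18:38001234-38001564 (3.01-fold, −log10 q 1.44) lay at the end of the last one, and replicate 2 had none. Apart from that peak, each peak of the clusters touched a variable exon reading frame, 22 of 23 in replicate 1 and 20 of 20 in replicate 2.

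Enrichment at protocadherin exons lay in the middle of the genome-wide range. The median of the peaks of the 3 clusters was 3.19-fold in replicate 1 and 3.70-fold in replicate 2. Over all peaks it was 3.29-fold and 3.60-fold, and 41.4% and 55.3% of all peaks lay below the cluster medians. The highest values were 4.35-fold and 4.52-fold, and 91.5% and 82.6% of all peaks lay below them. A −log10 q of at least 2 was reached by 11 of 23 protocadherin peaks in replicate 1 and 12 of 20 in replicate 2, against 58.0% and 65.3% of all peaks. The replicates shared 9 of the 23 peaks of replicate 1 (39.1%) and 10 of the 20 of replicate 2 (50%). Of the 33 merged regions in the 3 clusters, 9 held peaks of both replicates (27.3%), against 44.2% of all merged regions. These 9 regions lay in alpha 14 and in gamma 12, 13, 14, 16, 18, 19, 20 and 21.

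**Figure D2:**
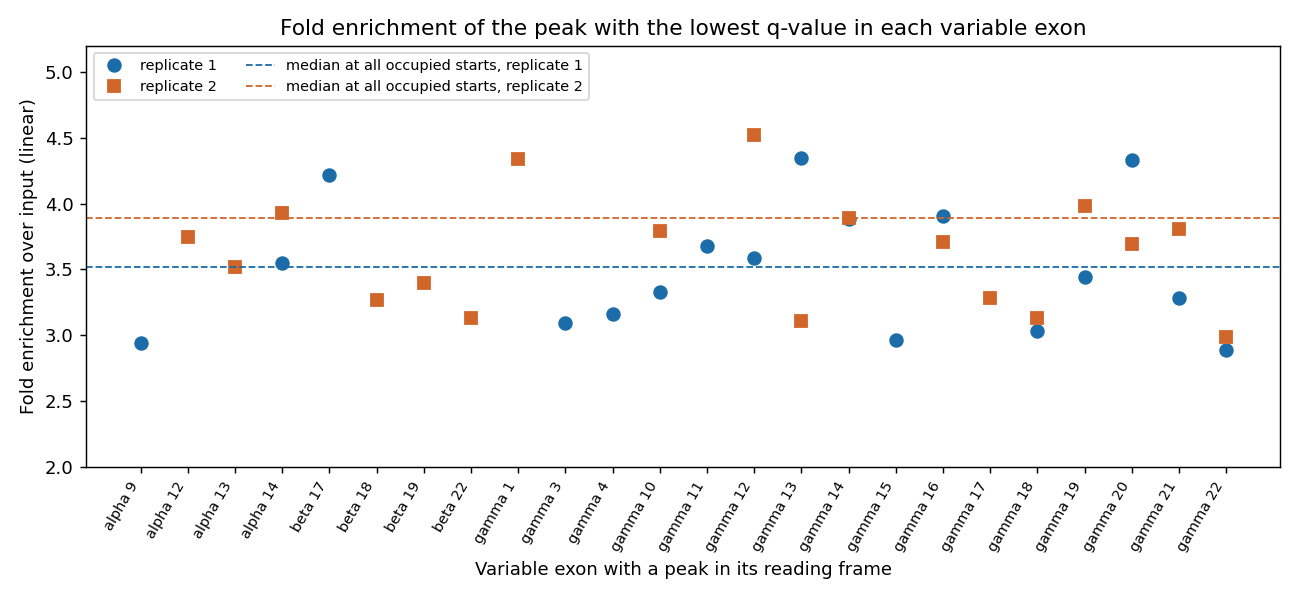
Fold enrichment over input (linear axis, not starting at 0) of the peak with the lowest q-value in each of the 24 variable exons that held a peak, for replicate 1 (blue circles) and replicate 2 (orange squares). Dashed lines mark the median highest enrichment at all occupied starts, 3.52-fold and 3.89-fold; the values lie between 2.89-fold and 4.52-fold, on both sides of the lines.

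As a share of length, merged regions covered 12.5% of the 168 kb gamma span. They covered 1.23% of the 257 kb alpha span and 0.994% of the 256 kb beta span. Each span began at the first annotated start of its cluster, so gamma 1 and gamma 2 lay outside the gamma span. The share for all autosomes was 1.02% and for chromosome 18 alone 0.641%. In replicate 1 and replicate 2 the covered shares were 10.2% and 5.82% for gamma, 0.591% and 1.07% for alpha, and 0.0967% and 0.897% for beta. Gamma exceeded the autosomal share (0.672% and 0.782%) in both replicates, whereas alpha and beta lay on either side of it.

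CpG content was considered because RYBP peaks as a whole followed it. Taking annotated starts whose surrounding sequence, 500 bp to either side, held 3 or more CpG per 100 bp, 80.5% had a merged region and 57.8% a peak in both replicates, against 8.86% with a merged region at all other starts. Such CpG-rich starts made up 10 of 10 alpha, 1 of 21 beta and 6 of 9 gamma exons. A merged region was found at 2 of the 10 alpha, 0 of the 1 beta and 5 of the 6 gamma CpG-rich starts. Alpha starts were mostly near the lower end of that range, at 3.10 to 8.89 CpG per 100 bp. At starts with 3 to 5 CpG per 100 bp, the background was 61.3% with a merged region and 36.9% in both replicates, while the alpha cluster had 1 of 9 and 0 of 9, and the gamma cluster 4 of 5 and 1 of 5.

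Alpha 14 and gamma 20, with peaks over the start codon in both replicates, had the densest CpG around the start codon in their clusters, 8.89 and 7.49 CpG per 100 bp. Beta starts had a median of 1.5 CpG per 100 bp. Over all 22 gamma frames, the sequence under peaks had 5.61 CpG per 100 bp in replicate 1 and 6.03 in replicate 2. Outside peaks, frames without a peak included, the sequence had 3.24 and 3.48. Among frames with a peak, the most covered of the 3 stretches was CpG-densest in 8 of 14 (replicate 1) and 6 of 12 (replicate 2). Gamma frames with peaks in both replicates had a median of 4.68 CpG per 100 bp (2.87 to 5.90, n = 10) and those without a peak 3.13 (2.34 to 4.54, n = 6), so the ranges overlapped. In the alpha cluster CpG around the start and over the frame differed. Around the start codon, alpha 13 and alpha 14, the alpha starts with a peak, had 5.0 and 8.89 CpG per 100 bp, against 3.10 to 4.20 in alpha 1 to alpha 12. In the 1 kb upstream they had 3.0 and 5.40, against 0.60 to 1.80. Over the whole frame the order was the opposite, with 2.64 and 3.61 against a median of 4.69 in alpha 1 to alpha 12, of which 10 were without a peak.

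**Figure D3:**
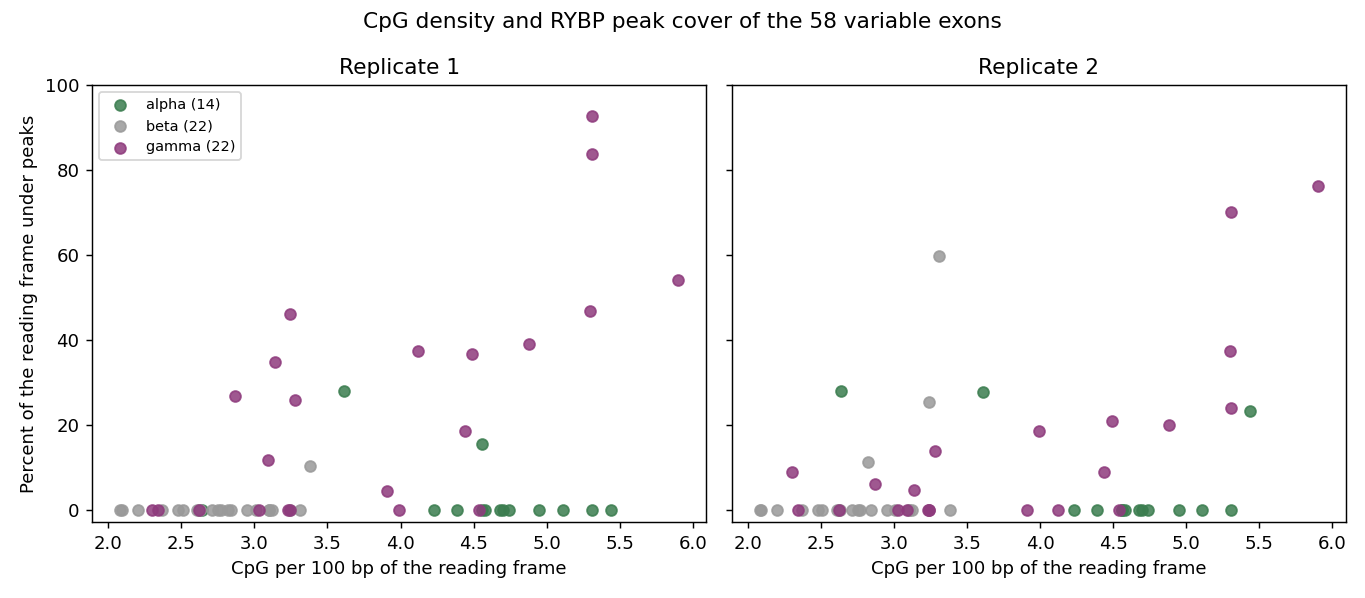
Percent of each of the 58 reading frames under RYBP peaks (y axis) against its CpG per 100 bp (x axis), for replicate 1 (left) and replicate 2 (right), with 1 point per variable exon. Gamma points (purple) reach 92.7% and 76.2%, and most alpha points (green) lie at 0 above 4 CpG per 100 bp.

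Similarity between exons also differed among the clusters, and reads that aligned to more than 2 places were discarded by the authors. Of all 37 bp stretches of a reading frame, the length of the sequenced reads, the share that matched more than 2 places of the locus with up to 2 mismatches had a median of 28.8% in alpha, 27.0% in beta and 6.99% in gamma frames. In alpha 1 to alpha 12 it was 23.0% to 36.3%, and in alpha 13, alpha 14 and gamma 20 to gamma 22 it was 0%. It was also 0% in Pcdhb1, which had no peak. In gamma frames the medians were 6.67% with peaks in both replicates and 7.71% without a peak. The matches were counted for single stretches, whereas the reads were paired ends. Whether discarded reads lowered the counts of alpha and beta peaks was not tested.

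Several other gene families were compared by 1 start per gene. Non-clustered protocadherins, related adhesion genes scattered over the genome, had a merged region at 7 of 12 starts (58.3%) and peaks in both replicates at 5 (41.7%), near the 49.5% and 34.1% of all genes. These 5 were Pcdh7, Pcdh8, Pcdh10, Pcdh17 and Pcdh19, with enrichments of 3.59-fold to 4.22-fold in replicate 1 and 3.96-fold to 4.70-fold in replicate 2. Pcdh8 encodes a paraxial mesoderm protocadherin, and its start had 3.95-fold and 4.05-fold peaks. Pcdh1 and Pcdh12 lie downstream of the gamma cluster on the same chromosome; Pcdh1 had no peak and Pcdh12 had one in replicate 1 (2.97-fold).

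Among other tandem gene arrays, all 40 Hox genes, a well-known Polycomb target family, had peaks in both replicates. Histone cluster genes had peaks in both at 37 of 67 (55.2%), and olfactory receptors, of which an olfactory neuron expresses a single member, at 1 of 1087 (0.0920%). Peaks in both replicates were found at 34.1% of all gene starts and at 57.5% of the CpG-rich ones, near the histone share. Olfactory receptor starts were CpG-poor, with 2 of 1087 reaching 3 CpG per 100 bp, against 65 of 67 histone and 30 of 40 Hox starts.

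**Figure D4:**
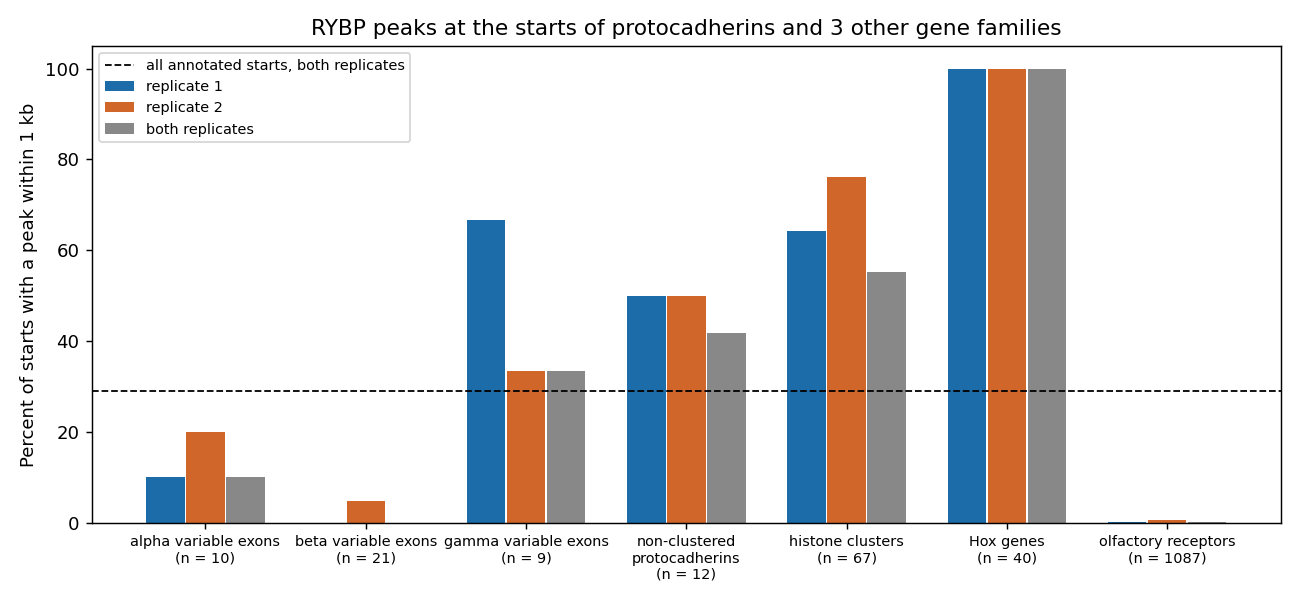
Percent of starts with an RYBP peak within 1 kb in replicate 1 (blue), replicate 2 (orange) and both (grey), for the annotated variable exons of each protocadherin cluster and 4 other gene sets, with the number of starts below each name. The dashed line marks the 29.0% of all annotated starts with a peak in both replicates; beta exons and olfactory receptors lie near 0 and Hox genes at 100%.

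Genes beside and inside the locus were read in the same way. The 3 nearest upstream protein-coding genes, Hars, Zmat2 and Gm6756, had no peak within 1 kb of their start. Inside the locus Gm10545, Slc25a2 and Taf7, a subunit of the general transcription factor TFIID, had none, and 3222401L13Rik had one in replicate 2 (3.13-fold, −log10 q 1.33). Downstream, Diap1, an actin-nucleating formin, had a replicate 2 peak (4.12-fold). Hdac3, a histone deacetylase, and Rell2 shared peaks of 4.37-fold in replicate 1 and 3.38-fold in replicate 2.

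A list of 22 genes was made of known regulators of the clustered protocadherins, general DNA methylation and silencing factors and kinases that act after them. Of these, 15 had a merged region and 7 peaks in both replicates. Among 11 CTCF, cohesin and cohesin-loading genes, Ctcf (2.87-fold and 3.47-fold), Smc3 (3.02-fold and 3.54-fold) and Pds5a (3.85-fold and 3.73-fold) had peaks in both, 4 had one in replicate 2 alone, and Rad21, Smc1a, Stag2 and Mau2 had none. Among 9 DNA methylation and silencing genes, Dnmt3a and Dnmt3b, the de novo DNA methyltransferases, had peaks of 4.99-fold and 4.27-fold in replicate 1 and 6.16-fold and 4.71-fold in replicate 2, and the chromatin remodeller Hells also had peaks in both. Dnmt1, Tet1 and Tet2 had none, Tet3 and Setdb1 had one in replicate 1 alone, and Smchd1 had one in replicate 2 alone (3.07-fold). Ptk2, the focal adhesion kinase, had peaks in both replicates (3.61-fold and 4.56-fold), and its relative Ptk2b in replicate 1. The shares, 15 and 7 of 22, stand beside the 49.5% and 34.1% of all genes. Of the listed starts, all but those of Tet1 and Tet2 had 3 or more CpG per 100 bp around them. Among all gene starts with such CpG content the shares were 80.7% and 57.5%.

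Mesoderm marker genes were read for occupancy only. All 6, Kdr, Pdgfra, T, Mesp1, Etv2 and Tal1, had a merged region, and 5 had peaks in both replicates, with Etv2 in replicate 2 alone, beside 49.5% and 34.1% of all genes. Mesp1, a cardiac mesoderm factor, had 4.21-fold and 6.84-fold peaks, the second above every protocadherin peak. Kdr, which encodes FLK1, had 3.38-fold and 4.0-fold peaks, in the range of the protocadherin exons.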

How the data were processed

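RYBP ChIP-seq libraries (2) and inputs (2) from FLK1+ mesoderm were sequenced by the authors as 37 bp paired ends. Per the labels and the study's methods, reads were aligned to mm9 with Bowtie 1.1.2b, allowing 2 mismatches and discarding reads with more than 2 placements, and broad peaks were called per replicate against input with MACS2 2.0.10. The deposited peak lists hold a score, a fold enrichment over input, and −log10 p and q values for each peak; the score and p were not used here. The deposited merged list, made with bedtools, holds positions only, and all 22409 of its regions equalled the union of both lists once 1 bp was added to the starts of replicate 2. The peak lists hold no read counts, so no depth-based interval was computed. Mapped reads are stated in the study's reporting summary, with more for replicate 1, and were not used here.

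Starts were taken from GENCODE vM1, 1 per gene from the transcript with the longest coding sequence, or all starts at least 1000 bp apart. A start counted as occupied when at least 1 bp of a peak lay within 1000 bp. Reading frames, CpG and 37 bp matches were read from the mm9 genome with pysam 0.24.0 and scripts in Python 3.11.15. The matching of peaks to starts was tested on simulated peaks placed inside and outside the window. Groups were 1 set of 2 replicates, so no test was made. Replicates were separate differentiations.

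Members and lists were chosen with earlier results of these data known. Named were, per cluster, up to 4 exons with the best smaller q of the replicates at the start, the first member, the C-type members, up to 3 with a peak in 1 replicate, and the neighbours; gamma exons outside the rule were named after their values were seen. The C-type members could not be named from this annotation and were grouped by position. Counts over all exon starts and over reading frames were added after seeing the data. Alternatives covered the window, the peak cutoffs, the overlap, the start definition and leaving out a replicate.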

Additional observations from a re-analysis of the deposited data

How the results depend on the processing

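No paired analysis was possible because peak lists exist here for the ChIP group alone, which leaves nothing to pair. Of the 24 gene starts, 1 to 6 had a merged region under the alternatives run. Against 2 starts with a merged region, the 2.5 kb window and the whole first exon each gave 6, the start base alone 1 and a −log10 q of at least 2 gave 1; leaving out a replicate gave 1 to 2. Against 1 start with peaks in both replicates, the 2.5 kb window gave 2 and any transcript start 2.

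The alternatives for exon starts and reading frames were chosen after seeing the data. Against 9 exon starts with a merged region, the 2.5 kb window, the whole exon and the window to 2.4 kb downstream each gave 17 and the start base 4; leaving out a replicate gave 6 to 7. Against 4 in both replicates, the 2.5 kb window gave 8 and the start base 2. Among reading frames with a merged region, a −log10 q of at least 2 gave 10 gamma frames in place of 16, and 1 beta frame in place of 4; within 1 kb of the start codon the counts were 2 alpha frames and 1 beta frame. Leaving out a replicate gave 2 to 3 alpha, 1 to 3 beta and 12 to 14 gamma frames.

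The share of all gene starts with a merged region moved from 49.5% to 80.7% at CpG-rich starts and to 41.5% with a −log10 q of at least 2, and in both replicates from 34.1% to 57.5% and 25.9%. The 2.5 kb window gave median enrichments of 3.89-fold (replicate 1) and 3.34-fold (replicate 2) at gene starts and 3.70-fold at exon starts in replicate 2. Covered spans ranged over 0.591% to 1.07% (alpha), 0.0967% to 0.897% (beta) and 5.82% to 10.2% (gamma) with a replicate left out. A −log10 q of at least 2 gave 0.0967% for beta and 8.36% for gamma. The causes of these moves were not tested beyond the fewer peaks or wider windows that each alternative uses. The peak lists hold no read counts, and the replicates differed in mapped reads, which limits every statement on missing peaks.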
